A study of Mus musculus with 51 samples.

Results

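The 10 genes described here are inhibitors and target genes of the Wnt pathway: Wif1, Dkk1, Dkk3, Sfrp1, Sfrp2, Notum, Apcdd1, Axin2, Nkd1 and Nkd2. They were chosen by name, and each had 1 entry among the 52636 genes of the count table. Their RNA was measured in cells sorted from mouse oesophagus, from the junction of oesophagus and stomach, from stomach and from gut, in 51 libraries of 14 groups. The study set oesophageal cells with active Hedgehog signalling (SmoM2) beside normal, embryonic and columnar cells.

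Wnt proteins act on Frizzled and Lrp5 or Lrp6 receptors, which stops the breakdown of beta-catenin and lets it turn on genes together with Tcf and Lef factors. Many inhibitors of the pathway are themselves its targets, so that they act as feedback and are often read as a sign of the pathway's activity. In the digestive tract Wnt signalling is best known for keeping intestinal stem cells, whereas the SmoM2 form of Smoothened switches on the separate Hedgehog pathway without a ligand.

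Sox9cKO cells (n = 4) had the genotype Krt5-SmoM2-Sox9fl/fl and high EpCAM, a surface protein of epithelial cells. SmoM2 cells (n = 6) were EpCAM-high cells of Krt5-SmoM2 mice on a CD1 background. K8YFP+ and K8YFP- cells (n = 3 each) came from Krt5-SmoM2-Krt8YFP mice of mixed background, were both EpCAM high, and did or did not carry the YFP reporter of Krt8, a keratin of simple epithelium. EpCAM-high and EpCAM-low Krt5-SmoM2 cells were each collected at 3w and 7w (n = 4 each), and the labels do not say from when these weeks were counted. Embryonic oesophagus (n = 2) was taken at E13.5 from Krt8YFP embryos of mixed background and sorted on EpCAM and YFP. WT cells (n = 6) were EpCAM-low oesophageal cells of wild type CD1 mice. From Krt8YFP mice came columnar cells of the junction (n = 4, EpCAM high and YFP positive), squamous cells of the junction (n = 3, EpCAM high and YFP negative), stomach cells (n = 2) and gut cells (n = 2), the last 2 groups sorted on YFP. In every SmoM2 group the transgene acts in Krt5-expressing cells, the basal cells of squamous epithelium, and ages of adult mice and some strains are not given. Nothing says that replicates came from separate animals, so p-values measure only the spread between these libraries.

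Libraries held 1.61 to 12.3 M counts, with the fewest in K8YFP+ replicate 2. Gli1, a target and effector of Hedgehog signalling, had 194 to 288 CPM (counts scaled to the library total) in SmoM2 libraries and 0.428 to 1.22 CPM in WT libraries. Squamous markers summed to 10584 to 12156 CPM in junction squamous and 17745 to 26670 CPM in WT libraries, against 67.5 to 185 CPM in junction columnar libraries. K8YFP+ replicate 2 stood apart from the other K8YFP+ libraries, with 256 CPM of muscle markers (others 43.2 and 9.17) and 146 CPM of endothelial markers (others 26.1 and 39.6). Sox9, the gene floxed in Sox9cKO mice, had 45.7 to 127 CPM in Sox9cKO cells and 72.7 to 194 CPM in SmoM2 cells, so these groups overlapped. In sorted bulk samples, fewer cells of a type and less RNA per cell cannot be told apart. The raw sample names begin with a number that the labels do not explain. It is 4 to 6 in WT and 1 or 2 in SmoM2 libraries, 9 in junction columnar and 10 in junction squamous, and 11 at 3w and 12 at 7w, so what it marks and these groups cannot be told apart.

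The stretches upstream of Wif1 and Axin2 are shown because these genes were the members higher in SmoM2 than in WT cells. They are RefSeq sequences of GRCm38.p6, 5′ to 3′ on the plus strand, and run up to the base before the start of the gene in the GENCODE models, from chr10:121033754-121033959 for Wif1 and chr11:108920099-108920348 for Axin2.
Wif1: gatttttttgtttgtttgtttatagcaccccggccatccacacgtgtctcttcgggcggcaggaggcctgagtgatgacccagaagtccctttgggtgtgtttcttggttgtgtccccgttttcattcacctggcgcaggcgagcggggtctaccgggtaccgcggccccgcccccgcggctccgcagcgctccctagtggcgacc
Axin2: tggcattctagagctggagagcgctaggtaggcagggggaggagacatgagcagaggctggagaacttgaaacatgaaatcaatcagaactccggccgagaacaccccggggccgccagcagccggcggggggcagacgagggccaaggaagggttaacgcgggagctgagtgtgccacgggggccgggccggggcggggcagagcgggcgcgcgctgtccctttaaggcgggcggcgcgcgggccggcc
Windows from 250 bases before to 50 after the RefSeq start were matched for 6 of the 10 members, Wif1, Dkk1, Sfrp2, Axin2, Nkd1 and Nkd2. The core of the Tcf and Lef motif, CTTTGA, was searched on both strands and occurred in 5257 of 32851 windows of all genes (16%). Among the members it was found in Dkk1, 117 and 174 bases before the start, once on each strand. The Gli motif GACCACCCA occurred in 83 windows (0.253%) and in no member's window. These are letters found or not found in a short stretch and say nothing about binding, and no letter above is in capitals since neither motif occurs in the Wif1 and Axin2 stretches.

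All positions are on GRCm38, with gene models of GENCODE M21. Of the secreted inhibitors, Wif1 lies on chr10:121033960-121100650 (plus strand), Dkk1 on chr19:30545863-30549665 (minus), Dkk3 on chr7:112116017-112159057 (minus), Sfrp1 on chr8:23411502-23449632 (plus), Sfrp2 on chr3:83766321-83774316 (plus) and Notum on chr11:120653788-120661175 (minus). Apcdd1, a membrane protein, lies on chr18:62922231-62961179 (plus). The intracellular inhibitors are Axin2 on chr11:108920349-108950783 (plus), Nkd1 on chr8:88521354-88594884 (plus) and Nkd2 on chr13:73818534-73847631 (minus). All are protein coding. Antisense or overlapping genes share bases with Sfrp2, Notum, Axin2, Nkd1 and Nkd2, and the strand setting of the counting is not given, so reads of such partners may be included.

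Levels are given as CPM of the library total, and where genes are set side by side they are divided by exon length (CPM per kb). Wif1, which binds Wnt proteins outside the cell, was the highest member by this measure, at 23.4 CPM per kb in K8YFP- cells and 20.2 in SmoM2 cells. Sfrp1, a secreted Frizzled-like protein that also binds Wnts, reached 17.95 CPM per kb in junction squamous cells and 14.7 in EpCAM-low 7w cells. Next came Sfrp2, a relative of Sfrp1, at 7.61 CPM per kb in the embryo, Axin2, a scaffold of the complex that breaks down beta-catenin, at 7.32 in gut, and Dkk3, a divergent Dickkopf family member, at 6.83 in the embryo. Nkd1, which binds Dishevelled inside the cell, peaked at 5.66 CPM per kb in junction columnar cells, and Apcdd1, which binds Wnts and their co-receptors at the membrane, at 5.13 in EpCAM-low 7w cells. Notum, an esterase that strips Wnts of their lipid, peaked at 2.44 CPM per kb in junction squamous cells, and Nkd2, the relative of Nkd1, at 1.99 in the same cells. Dkk1, which binds the Lrp co-receptors, was lowest, at 0.114 CPM per kb in the embryo.

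**Figure D1:**
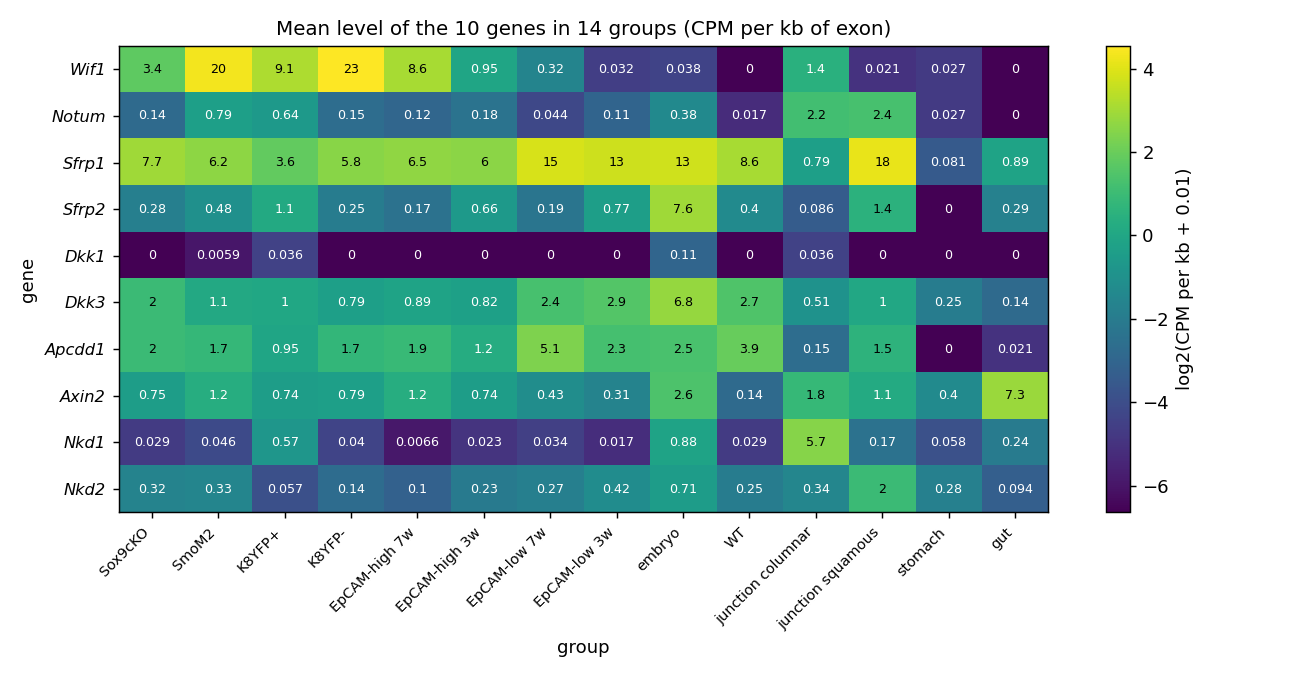
Mean CPM per kb of exon of the 10 genes (down the page) in the 14 groups (across). The members peak in different groups: Wif1 in SmoM2-carrying cells, Sfrp1 and Nkd2 in junction squamous cells, Nkd1 in junction columnar cells, Axin2 in gut, and Sfrp2, Dkk3 and Dkk1 in the embryo.

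Wif1 had its highest levels in SmoM2-carrying oesophageal cells. Its group means were 56.7 ± 64.9 CPM in K8YFP- cells (SD, n = 3), 49.1 ± 42.2 in SmoM2 (n = 6), 21.97 ± 24.6 in K8YFP+ (n = 3), 20.8 ± 5.08 in EpCAM-high 7w (n = 4) and 8.36 ± 8.44 in Sox9cKO (n = 4). Each of these groups overlapped the next one down, and SDs of all of them but EpCAM-high 7w were near or above the size of the mean. Junction columnar cells had 3.28 ± 1.15 CPM, EpCAM-high 3w cells 2.30 ± 1.68 and EpCAM-low 7w cells 0.776 ± 0.161. No Wif1 read was counted in any of the 6 WT libraries, which allows a level of up to 0.0563 CPM, or in the 2 gut libraries (up to 0.466 CPM). Embryo, EpCAM-low 3w, stomach and junction squamous libraries together held 6 Wif1 reads. These limits cover counting error only.

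Dkk1 was close to absent. It had 10 reads in all 51 libraries, 6 of them in the embryo, at 0.277 and 0.275 CPM. The other 4 reads lay in SmoM2 replicate 5, K8YFP+ replicate 3 and junction columnar replicates 2 and 4. Against no read in 6 WT libraries, the embryo mean was 4.91-fold the floor of 3 counts over the WT group. Counting error of the 6 embryo reads is not in this value. Dkk1 was tested in no comparison.

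Sfrp1 and Apcdd1 had their highest means in squamous groups. Sfrp1 averaged 78.5 ± 6.76 CPM in junction squamous cells (n = 3), 64.4 ± 14.6 in EpCAM-low 7w, 57.6 ± 25.6 in the embryo, 56.5 ± 5.84 in EpCAM-low 3w and 37.5 ± 5.45 in WT cells. All EpCAM-low 3w libraries lay above all WT libraries. Below WT came Sox9cKO, EpCAM-high 7w, SmoM2, EpCAM-high 3w, K8YFP- and K8YFP+ cells, each overlapping the next, with means of 33.6 to 15.6 CPM. In junction columnar cells the mean was 3.45 ± 1.26 CPM and in stomach cells 0.353 ± 0.0567. Apcdd1 had its highest levels in EpCAM-low 7w (66.1 ± 9.90 CPM) and WT cells (50.3 ± 11.9 CPM). It was listed at 0 in both stomach libraries and had 0 and 0.551 CPM in gut.

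Nkd1 separated junction columnar cells from all other groups, with 25.4, 32.7, 21.9 and 23.1 CPM. Embryos had 3.51 and 4.49 CPM, and K8YFP+ cells 0.447, 6.85 and 0.524 CPM, the high value being that of replicate 2. Every other library had at most 2.20 CPM. Notum was likewise highest at the junction, in squamous (5.88 ± 1.56 CPM) and columnar cells (5.30 ± 1.16 CPM), which overlapped, and every junction library lay above every library of the other groups. SmoM2 cells came next at 1.91 ± 0.917 CPM, and WT cells had 2 reads in 6 libraries.

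**Figure D2:**
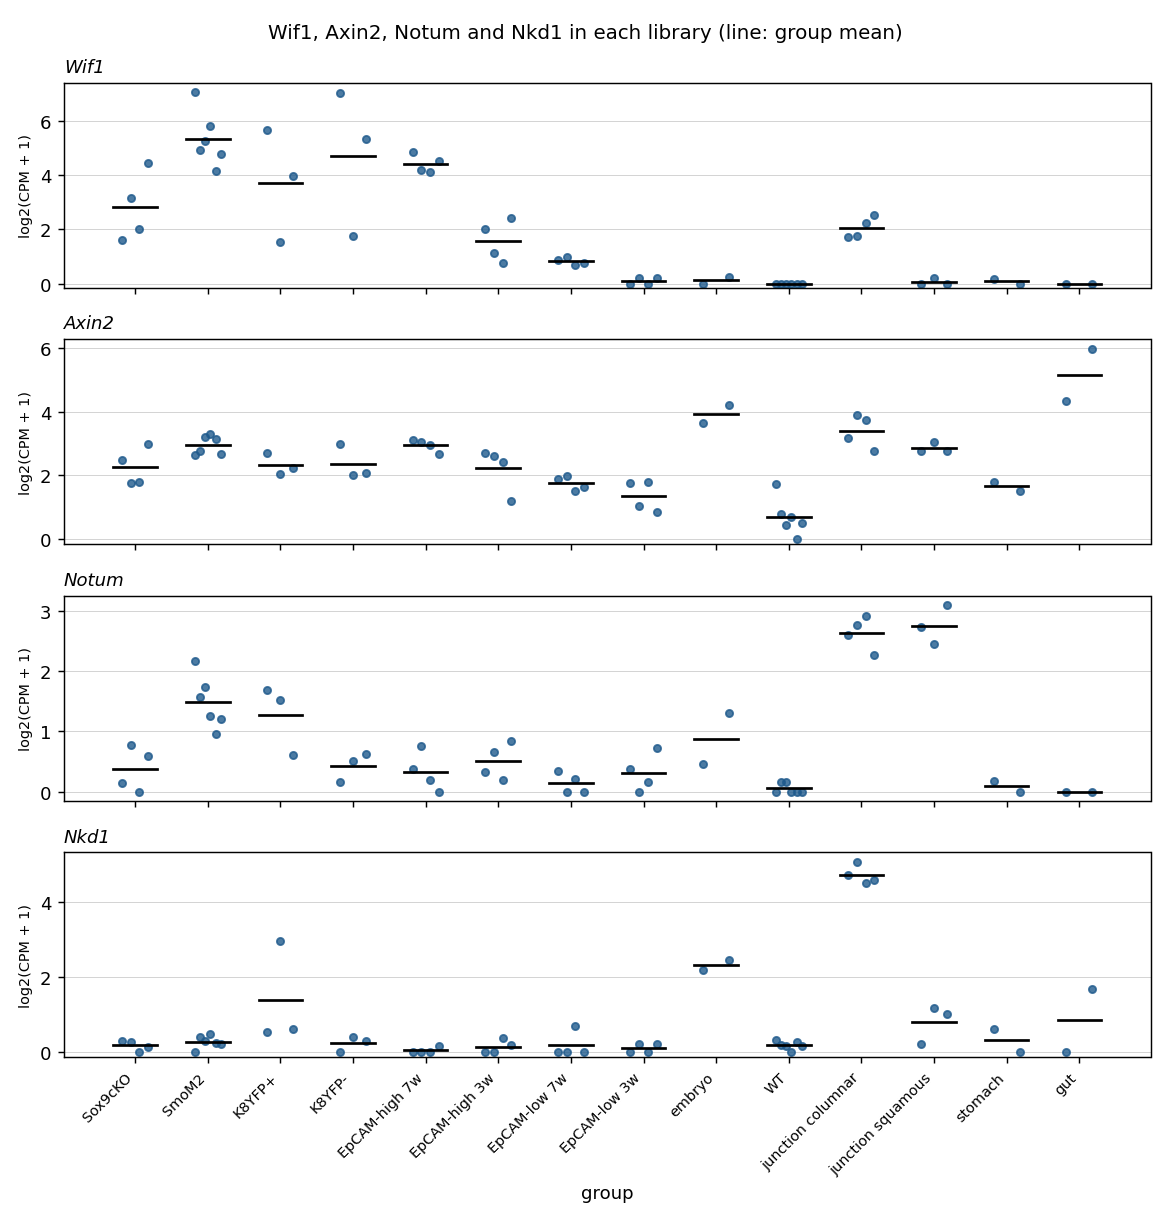
Wif1, Axin2, Notum and Nkd1 in each of 51 libraries, as log2(CPM + 1) by group, points being libraries and lines the mean of the plotted values. The 6 WT libraries have no Wif1 read, and the 4 junction columnar libraries lie above all others for Nkd1.

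**Figure D3:**
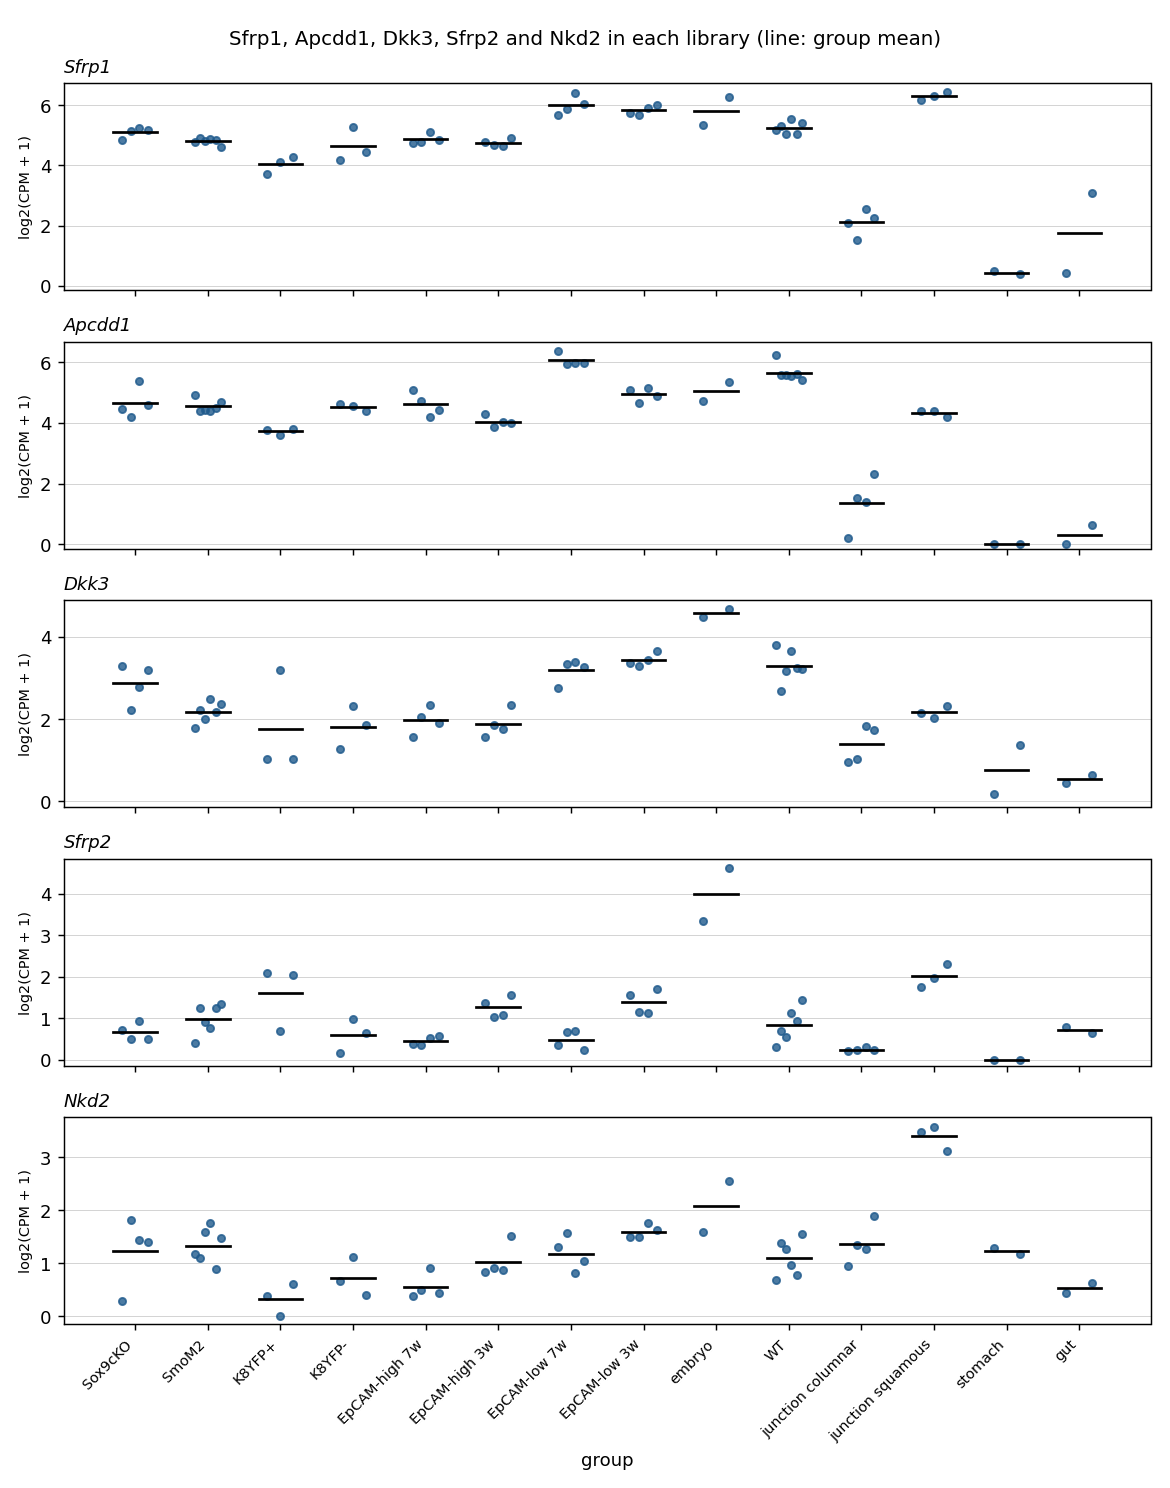
Sfrp1, Apcdd1, Dkk3, Sfrp2 and Nkd2 in each of 51 libraries, drawn in the same way. Sfrp1 is 50.5 CPM or more in the 8 EpCAM-low SmoM2 libraries, and Sfrp2 and Dkk3 are highest in the embryo.

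SmoM2 cells carried more Wif1 and Axin2 RNA than WT cells and less Dkk3, Sfrp1 and Apcdd1. Of the 10 members, 6 had enough reads to be tested in this comparison, which used edgeR's quasi-likelihood test with Benjamini-Hochberg adjustment over all genes, as did every adjusted p below. 2 were called higher and 3 lower at an adjusted p under 0.05, where 26.2% of all genes tested were called higher and 23.3% lower (49.5% in all). The median log2 fold of the members tested was -0.17, against 0.01 for all genes. Genotype and gate differed together here, since SmoM2 cells were EpCAM high and WT cells EpCAM low, and their parts cannot be told apart.

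Wif1 ranged from 16.5 to 131 CPM in SmoM2 libraries (median 33.1) and was 0 in all WT libraries. The groups did not overlap, and the mean was at least 873-fold above the floor of the WT group (adjusted p = 2.02e-05). The highest library was SmoM2 replicate 1, and without it the bound was 582-fold and the call held (adjusted p = 1.44e-06). Axin2 ranged from 5.27 to 8.75 CPM in SmoM2 libraries (median 6.74) and from 0 to 2.31 CPM in WT libraries (median 0.534). The lowest SmoM2 library was above the highest WT library, replicate 1, and the log2 fold was 3.09 ± 0.45 (SE, adjusted p = 5.39e-05). Without WT replicate 1 it was 3.85 (adjusted p = 1.26e-06). That library also had the highest fibroblast marker sum of the WT libraries, 149 CPM where the others had 71.0 to 104, and the part of this in the Axin2 value was not tested.

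Apcdd1 ranged from 19.9 to 28.9 CPM in SmoM2 libraries (median 20.8) and from 41.8 to 74.2 CPM in WT libraries (median 46.2). It fell by 1.28 on the log2 scale, ± 0.16 (SE, adjusted p = 9.73e-06), with no overlap. Dkk3 ranged from 2.42 to 4.57 CPM in SmoM2 and from 5.47 to 13.03 CPM in WT libraries, again without overlap, and its log2 fold was -1.49 ± 0.21 (adjusted p = 3.44e-05). For Sfrp1 the ranges were 23.5 to 28.8 CPM in SmoM2 and 31.8 to 45.6 CPM in WT, and the log2 fold was -0.59 ± 0.10 (adjusted p = 0.000122). Nkd2 overlapped between the groups and was not called (0.25 ± 0.32, adjusted p = 0.534).

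Notum had too few reads to be tested here, but its groups did not overlap: SmoM2 libraries had 0.946 to 3.48 CPM (median 1.69) and WT libraries 0 to 0.124 CPM. The 114 reads in SmoM2 and 2 in WT gave a ratio of 49.0 per library total, with a counting interval of 13.3 to 410 (exact, 95%). When low genes were kept in the fit, Notum had a log2 fold of 5.07 with an adjusted p of 7.24e-07. Sfrp2 and Nkd1 were low in both groups, at 1.03 ± 0.477 and 0.211 ± 0.137 CPM in SmoM2 and at 0.855 ± 0.531 and 0.132 ± 0.0845 CPM in WT cells.

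Other Wnt genes in the same fit are set against 26.2% of all genes called higher and 23.3% lower. Of 15 other antagonists, 6 were tested and all 6 rose, among them Igfbp4, which binds Wnt receptors, at 222 ± 36.9 CPM in SmoM2 and 24.4 ± 7.73 CPM in WT, and Znrf3 and Rnf43, ligases that remove Frizzled from the surface. Of 16 other target genes, 13 were tested, and 9 rose and 3 fell; Lgr5, an R-spondin receptor, had 192 ± 44.9 CPM in SmoM2 and 0.669 ± 0.283 CPM in WT (log2 fold 8.001 ± 0.23). Among 11 Wnt ligand genes tested of 21, 7 rose and 3 fell, with Wnt9a at 10.3 ± 2.42 CPM in SmoM2 and 0.155 ± 0.121 CPM in WT. Of 15 receptors and R-spondins tested of 22, 10 rose and none fell. Of 21 intracellular transducers, 11 rose and 2 fell, and Lef1, a partner of beta-catenin on DNA, had 4.09 ± 1.62 CPM in SmoM2 and 0.185 ± 0.0838 CPM in WT. Several genes stand on more than 1 of these lists, and no list was tested as a whole. The lists were chosen with earlier results of these data known. Genes as low in WT as Wnt9a and Lef1 could be tested only through their SmoM2 reads, so the counts that rose depend on that filter. All 13 fibroblast markers had reads in both groups and summed to 344 to 618 CPM in SmoM2 and 71.0 to 149 CPM in WT libraries. Most of the SmoM2 sum was Fbln1, and the other 12 markers summed to 21.5 to 35.9 CPM in SmoM2 and 20.4 to 117 CPM in WT libraries. The part of these cells in the results was not tested.

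**Figure D4:**
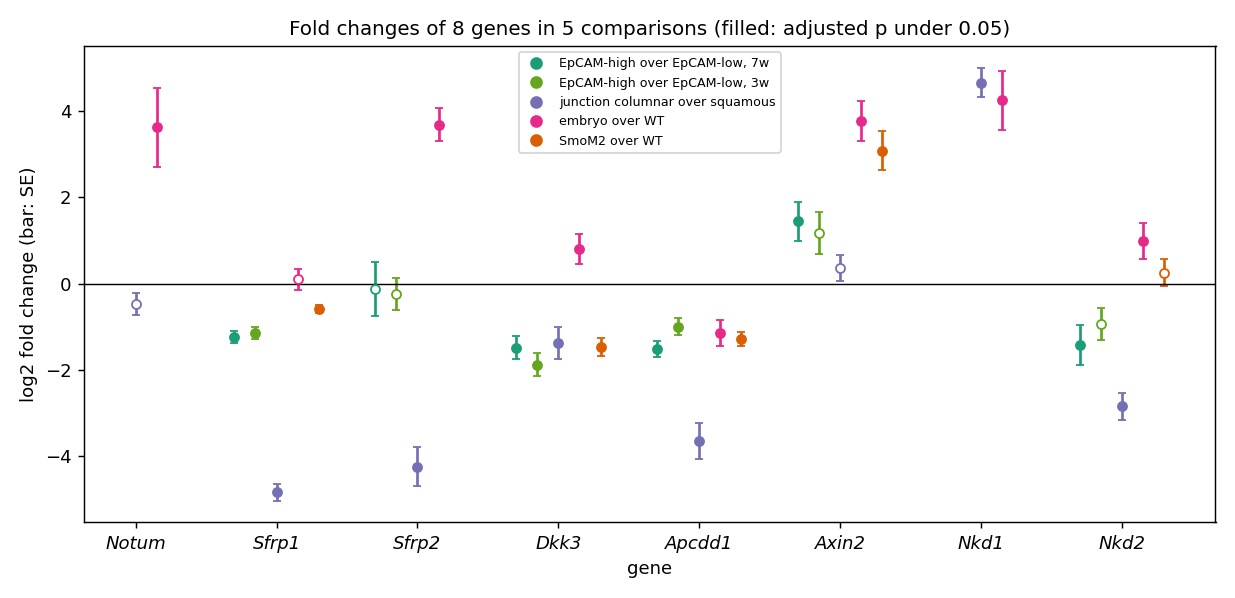
Log2 fold changes of 8 genes in 5 comparisons, with bars of 1 SE and filled points for an adjusted p under 0.05; Wif1 is left out because WT had no read, and Dkk1 was not tested. Apcdd1 and Dkk3 are below 0 in SmoM2 against WT and in both EpCAM gate comparisons, and Axin2 is above 0 in all 5 comparisons, called in 3.

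At both times the EpCAM-high SmoM2 cells had more Wif1 and less Dkk3, Sfrp1 and Apcdd1 than the EpCAM-low SmoM2 cells. At 7w, 2 of 7 members tested were called higher and 4 lower, where 15.5% of all genes were called higher and 16.8% lower (32.3% in all). At 3w, 1 of 7 was called higher and 3 lower, where 7.37% of all genes were called higher and 7.84% lower (15.2% in all). Both gates sorted cells of 1 genotype, and whether they held different shares of cells with an active transgene was not tested. Gli1 had 143 to 182 CPM in EpCAM-high and 6.13 to 11.0 CPM in EpCAM-low cells at 7w, and 98.5 to 122 CPM in EpCAM-high and 15.7 to 17.6 CPM in EpCAM-low cells at 3w. Squamous markers, all 7 with reads in each group, summed to 8472 to 10887 CPM in EpCAM-high and 18288 to 20281 CPM in EpCAM-low cells at 7w, and to 7774 to 8353 CPM in EpCAM-high and 10683 to 11714 CPM in EpCAM-low cells at 3w. At 3w, endothelial markers summed to 21.1 to 30.8 CPM in EpCAM-high and 36.6 to 44.7 CPM in EpCAM-low cells, with none of 6 at 0. Muscle markers at 3w summed to 9.79 to 12.0 CPM in EpCAM-high cells, with 1 of 8 at 0 (Actc1), and to 13.7 to 23.8 CPM in EpCAM-low cells, with none at 0. Simple epithelium markers summed to 27.5 to 44.1 CPM in EpCAM-high and 7.04 to 13.1 CPM in EpCAM-low cells at 7w. At 3w their sums were 32.2 to 45.7 and 12.4 to 19.1 CPM. Fibroblast markers summed to 353 to 421 CPM in EpCAM-high and 83.7 to 111 CPM in EpCAM-low cells at 7w. At 3w their sums were 247 to 286 and 115 to 130 CPM. None of these sums overlapped between the gates, though without Fbln1 the fibroblast sums did. Their part in the gate results was not tested.

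Wif1 at 7w was 27.4, 17.4, 16.3 and 21.95 CPM in EpCAM-high and 0.804, 0.988, 0.613 and 0.699 CPM in EpCAM-low cells. At 3w it was 3.00, 1.18, 0.699 and 4.34 CPM in EpCAM-high and 0, 0.153, 0 and 0.161 CPM in EpCAM-low cells. Neither pair of groups overlapped. The log2 fold at 7w was 4.68 ± 0.41 (adjusted p = 3.28e-08). At 3w the 69 reads in EpCAM-high and 2 in EpCAM-low cells made a ratio of 32.7 (exact 95% counting interval 8.73 to 276, adjusted p = 0.000227), but in the fit of all 14 groups this call was lost (adjusted p = 0.125).

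Apcdd1 at 7w was 33.0, 25.1, 17.5 and 20.6 CPM in EpCAM-high and 80.9, 60.6, 61.7 and 61.01 CPM in EpCAM-low cells, a log2 fold of -1.51 ± 0.18 (adjusted p = 6.05e-07). At 3w it was 18.5, 13.4, 15.2 and 14.9 CPM in EpCAM-high and 33.2, 24.3, 34.2 and 28.4 CPM in EpCAM-low cells (-1.004 ± 0.19, adjusted p = 0.000649). The groups did not overlap at either time. Sfrp1 had 25.9 to 33.3 CPM in EpCAM-high and 50.5 to 84.4 CPM in EpCAM-low cells at 7w, a log2 fold of -1.23 ± 0.14 (adjusted p = 2.02e-07). At 3w it had 24.3 to 29.1 CPM in EpCAM-high and 50.5 to 63.6 CPM in EpCAM-low cells (-1.16 ± 0.14, adjusted p = 2.10e-06). Dkk3 fell by 1.49 ± 0.27 at 7w (adjusted p = 0.000155) and by 1.88 ± 0.27 at 3w (adjusted p = 1.91e-05), on the log2 scale.

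Axin2 at 7w was 7.58, 7.30, 6.75 and 5.40 CPM in EpCAM-high and 2.68, 2.96, 1.84 and 2.10 CPM in EpCAM-low cells, with no overlap (log2 fold 1.45 ± 0.46, adjusted p = 0.0171). Without EpCAM-low 7w replicate 3 it missed the threshold (1.34, adjusted p = 0.0522). At 3w it was 5.48, 5.15, 4.34 and 1.31 CPM in EpCAM-high and 2.43, 1.07, 2.501 and 0.807 CPM in EpCAM-low cells, where EpCAM-high replicate 4 lay among the EpCAM-low values. The 3w fold of 1.17 ± 0.49 was not called (adjusted p = 0.113). It was called without that library (1.46, adjusted p = 0.0405) and with low genes kept in the fit (adjusted p = 0.0324). It was also called when the 3w libraries were fitted alone, with the replicate number, which paired the gates, as a block (1.19, adjusted p = 0.000183). The block and the change of libraries cannot be told apart there. Nkd2 was lower in EpCAM-high cells at 7w (-1.43 ± 0.46, adjusted p = 0.0187). This call was lost in the fit of all 14 groups (adjusted p = 0.0586), without EpCAM-high 7w replicate 1 (-1.28, adjusted p = 0.0536) or 4 (-1.30, adjusted p = 0.0541) and without EpCAM-low 7w replicate 2 (-1.22, adjusted p = 0.0688). At 3w Nkd2 was not called (-0.94 ± 0.36, adjusted p = 0.0843). It was called with the replicate block in the 3w libraries alone (-0.96, adjusted p = 0.0167) and without EpCAM-high 3w replicate 4 (-1.33, adjusted p = 0.0291). Sfrp2 overlapped between the gates and was not called at 7w (-0.14, adjusted p = 0.893) or 3w (-0.25, adjusted p = 0.735).

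No member's gate difference was called to change with time in the fit of 22 libraries. Apcdd1's was in a fit without WT that added the replicate block. In the interaction of gate and time without the block, 0 of 7 members were called by edgeR, 0 had an unadjusted p under 0.05 and 0 were called by DESeq2, where 1.55% of all genes were called higher and 0.759% lower (2.31% in all). Apcdd1 had an interaction of -0.51 ± 0.27 on the log2 scale (adjusted p = 0.438). In a fit of the gate libraries without WT, with the replicate number as a block within each time, it was -0.51 ± 0.14 and passed (adjusted p = 0.0108). Same-numbered libraries of the 2 gates deviated together in every pair at 3w, but not in every pair at 7w. The other members had adjusted p-values of 0.746 (Dkk3), 0.805 (Nkd2), 0.931 (Axin2), 0.939 (Sfrp1), 0.975 (Wif1) and 0.985 (Sfrp2) without the block.

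Between 3w and 7w, Wif1 rose and Sfrp2 fell in both gates. In EpCAM-high cells, 2 of 7 members were called higher at 7w and 2 lower, where 22% of all genes were called higher and 19.4% lower (41.4% in all). In EpCAM-low cells, 2 were called higher and 1 lower, where 19.5% of all genes were called higher and 18.4% lower (38% in all). Wif1 in EpCAM-high cells had a log2 fold of 3.09 ± 0.34 of 7w over 3w (adjusted p = 1.19e-06). In EpCAM-low cells 19 Wif1 reads at 7w and 2 at 3w made a ratio of 10.6 (exact 95% counting interval 2.56 to 94.1, adjusted p = 0.0172), which missed the threshold without EpCAM-low 3w replicate 3 (adjusted p = 0.0577) and in the fit of all 14 groups (adjusted p = 0.363).

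Sfrp2 in EpCAM-high cells was 0.303, 0.276, 0.440 and 0.480 CPM at 7w and 1.57, 1.03, 1.12 and 1.97 CPM at 3w (log2 fold -1.92 ± 0.48, adjusted p = 0.00266). In EpCAM-low cells it was 0.268, 0.593, 0.613 and 0.175 CPM at 7w and 1.97, 1.22, 1.19 and 2.26 CPM at 3w (-2.03 ± 0.49, adjusted p = 0.00211). The times did not overlap in either gate, although these are 10 to 45 reads a group. Apcdd1 in EpCAM-low cells was higher at 7w by 1.08 ± 0.18 (adjusted p = 6.53e-05), without overlap. In EpCAM-high cells its rise of 0.57 ± 0.20 (adjusted p = 0.0221) overlapped, and it was lost without EpCAM-high 7w replicate 1 (0.39, adjusted p = 0.118) or EpCAM-high 3w replicate 2 (0.52, adjusted p = 0.0600) or 4 (0.55, adjusted p = 0.0520) and in the fit of all 14 groups (adjusted p = 0.0791). Nkd2 in EpCAM-high cells was lower at 7w (-1.20 ± 0.46, adjusted p = 0.0396). That call was lost without EpCAM-high 3w replicate 4 (-0.81, adjusted p = 0.201) and without EpCAM-high 7w replicates 1 (-1.04, adjusted p = 0.101), 2 (-1.11, adjusted p = 0.0903) or 4 (-1.07, adjusted p = 0.103). It was also lost with low genes kept in the fit (adjusted p = 0.0979), with DESeq2 (adjusted p = 0.0784) and in the fit of all 14 groups (adjusted p = 0.107). In EpCAM-low cells Nkd2 was not called between the times (-0.71, adjusted p = 0.132). Dkk3, Sfrp1 and Axin2 overlapped between the times and were not called in EpCAM-high cells, at 0.06, 0.06 and 0.68 on the log2 scale (adjusted p = 0.888, 0.772 and 0.201), or in EpCAM-low cells, at -0.33, 0.13 and 0.39 (adjusted p = 0.293, 0.468 and 0.594). Endothelial markers, all 6 of them with reads in each group, summed to 10.0 to 18.4 CPM at 7w and 36.6 to 44.7 CPM at 3w in EpCAM-low cells, and to 14.9 to 18.9 CPM at 7w and 21.1 to 30.8 CPM at 3w in EpCAM-high cells. Their part in these results was not tested.

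EpCAM-low SmoM2 cells and WT cells were taken through the same gate. Genotype and the unexplained number in the names still differed, and age, time and strain are not given for all of these groups. Their parts cannot be told apart. This comparison used the same 6 WT libraries as the SmoM2, EpCAM-high and embryo comparisons, which are therefore not independent. At 7w, 3 of 7 members were called higher and none lower, where 19.4% of all genes were called higher and 21% lower (40.4% in all). At 3w, 1 was called higher and 1 lower, where 23.1% of all genes were called higher and 24.3% lower (47.4% in all). Sfrp1 was higher in EpCAM-low SmoM2 cells than in WT cells at both times, by 0.67 ± 0.12 at 7w (adjusted p = 0.000161) and 0.54 ± 0.12 at 3w (adjusted p = 0.00102) on the log2 scale, and no library overlapped. Wif1 in EpCAM-low 7w cells, from 19 reads, averaged 13.8-fold the WT floor (adjusted p = 0.000580), a call lost in a fit of all 14 groups (adjusted p = 0.116).

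Apcdd1 in EpCAM-low 3w cells was lower than in WT cells (-0.81 ± 0.17, adjusted p = 0.000383), with no overlap. At 7w its fold of 0.27 ± 0.16 was not called (adjusted p = 0.181), but it was called without WT replicate 1 (0.43, adjusted p = 0.00926), the WT library with the highest Apcdd1. Axin2 was higher than in WT at 7w (1.58 ± 0.53, adjusted p = 0.0200), and its groups overlapped through WT replicate 1. Without that library the fold was 2.34 (adjusted p = 0.000469), while the call was lost without EpCAM-low 7w replicate 1 (1.52, adjusted p = 0.0531) or 2 (1.49, adjusted p = 0.0532). At 3w Axin2 was not called (1.19 ± 0.55, adjusted p = 0.0770), but was without WT replicate 1 (1.96, adjusted p = 0.00276).

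Sfrp2 was not called against WT in EpCAM-low cells at 3w (0.85, adjusted p = 0.0545) or 7w (-1.18, adjusted p = 0.0554). At 3w it passed without WT replicate 4 (0.94, adjusted p = 0.0483) or 6 (1.15, adjusted p = 0.0112) or EpCAM-low 3w replicate 3 (1.01, adjusted p = 0.0418). At 7w it passed without WT replicate 1 (-1.36, adjusted p = 0.0177), 2 (-1.26, adjusted p = 0.0462) or 3 (-1.30, adjusted p = 0.0401) or EpCAM-low 7w replicate 3 (-1.47, adjusted p = 0.04995). Nkd2 at 3w (0.70, adjusted p = 0.0711) passed without WT replicate 2 (0.81, adjusted p = 0.0442) or 6 (0.88, adjusted p = 0.0320). For both genes, then, 1 library decided the call. With low genes kept in the fit Axin2 passed at 3w too (adjusted p = 0.0316). Dkk3 overlapped with WT and was not called at 7w (-0.28, adjusted p = 0.325) or 3w (0.05, adjusted p = 0.857), nor was Nkd2 at 7w (-0.01, adjusted p = 0.991) or Wif1, with 2 reads, at 3w (adjusted p = 0.187).

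EpCAM-high SmoM2 cells of the time series were set against the same WT libraries, with genotype and gate differing together. At 7w, 2 of 7 members were called higher and 5 lower, where 27.7% of all genes were called higher and 29.9% lower (57.6% in all), and at 3w 2 were called higher and 3 lower, where 28.2% of all genes were called higher and 30.7% lower (58.9% in all). Wif1 was at least 369-fold above the WT floor at 7w (adjusted p = 2.62e-11) and at least 41.0-fold at 3w (adjusted p = 7.12e-07). Axin2 had log2 folds of 3.03 ± 0.45 at 7w (adjusted p = 4.26e-06) and 2.35 ± 0.48 at 3w (adjusted p = 0.000186), which were 3.80 and 3.12 without WT replicate 1. Apcdd1 fell by 1.24 at 7w (SE 0.17, adjusted p = 1.47e-06) and by 1.81 at 3w (SE 0.18, adjusted p = 1.06e-08) on the log2 scale. Dkk3 had log2 folds of -1.77 ± 0.25 at 7w (adjusted p = 1.86e-06) and -1.83 ± 0.25 at 3w (adjusted p = 1.40e-06), and Sfrp1 of -0.57 ± 0.13 (adjusted p = 0.000675) and -0.62 ± 0.13 (adjusted p = 0.000255). Nkd2 was lower at 7w (-1.44 ± 0.41, adjusted p = 0.00445) and not called at 3w (-0.24, adjusted p = 0.569). Sfrp2 was lower at 7w (-1.32 ± 0.47, adjusted p = 0.0196), a call lost by DESeq2 (adjusted p = 0.0546) and without WT replicate 6 (-1.02, adjusted p = 0.0626) or EpCAM-high 7w replicate 1 (-1.23, adjusted p = 0.0501) or 2 (-1.19, adjusted p = 0.0607). At 3w it was not called (0.60, adjusted p = 0.157), and passed without WT replicate 6 (0.90, adjusted p = 0.0357).

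With Sox9 floxed in SmoM2 cells, no member passed the test, while 1.18% of all genes were called higher and 1.48% lower (2.66% in all). Of 7 members tested 0 were called by edgeR, 5 had an unadjusted p under 0.05, and DESeq2 called 4. Wif1 was 2.07, 7.91, 3.03 and 20.4 CPM in Sox9cKO cells, against 16.5 to 131 CPM in SmoM2 cells (median 33.1). Only Sox9cKO replicate 4 reached the SmoM2 range. The log2 fold was -2.55 ± 0.69 (adjusted p = 0.0703). Without Sox9cKO replicate 4 it was -3.42 and passed (adjusted p = 0.0428).

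Notum was 0.109, 0.710, 0 and 0.510 CPM in Sox9cKO cells, against 0.946 to 3.48 CPM in SmoM2 cells, with no overlap (-2.36 ± 0.61, adjusted p = 0.0595). Dkk3 was 8.82, 3.65, 5.92 and 8.17 CPM in Sox9cKO cells, against 2.42 to 4.57 CPM in SmoM2 cells, where Sox9cKO replicate 2 lay within the SmoM2 range (0.93 ± 0.24, adjusted p = 0.0614). Without Sox9cKO replicate 2 both passed, Notum at -3.00 (adjusted p = 0.0170) and Dkk3 at 1.13 (adjusted p = 0.00628). With low genes kept in the fit all 3 passed, Wif1 with an adjusted p of 0.00958, Notum with 0.0245 and Dkk3 with 0.0471. DESeq2 called them too, with an adjusted p of 0.0194 for Wif1, 0.00443 for Notum and 0.0110 for Dkk3.

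Sox9cKO libraries all have the number 2 in their raw names, as do 5 of 6 SmoM2 libraries. Without SmoM2 replicate 1, the one with the number 1, the folds were -1.91 for Wif1 (adjusted p = 0.0836), -2.06 for Notum (adjusted p = 0.0756) and 0.86 for Dkk3 (adjusted p = 0.0838). Axin2 was 4.57, 2.43, 2.4999 and 6.94 CPM in Sox9cKO cells, against 5.27 to 8.75 CPM in SmoM2 cells (-0.70 ± 0.28, adjusted p = 0.192). Sfrp1 was not called by edgeR (0.36 ± 0.11, adjusted p = 0.112) but was by DESeq2 (adjusted p = 0.0496). Nkd2 and Apcdd1 were called by neither. Among other Wnt genes, 0 of 6 antagonists tested, 2 of 14 target genes and 2 of 21 transducers were called lower, and 2 of 11 ligands higher. Lef1 fell to 0.757 ± 0.632 CPM in Sox9cKO cells, against 4.09 ± 1.62 CPM in SmoM2 cells (adjusted p = 0.0261), and Tnfrsf19, a receptor of the tumour necrosis factor family, to 0.388 ± 0.201 CPM, against 2.66 ± 1.41 CPM (adjusted p = 0.0193). Fibroblast markers without Fbln1 summed to 33.9 to 183 CPM in Sox9cKO and 21.5 to 35.9 CPM in SmoM2 libraries, and their part in these values was not tested.

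Among SmoM2 cells of Krt8YFP mice, no member was called between K8YFP+ and K8YFP- cells in the fit of these 2 groups. Wif1 was called when the replicate block was added. Of 5 members tested 0 were called by edgeR without the block, and 1 had an unadjusted p under 0.05. Of all genes 13.1% were called higher and 6.83% lower (19.9% in all). Other runs called members outside these 5: DESeq2 called 2, edgeR with low genes kept 2, and the fit of all 14 groups 3. With the block 1 member was called, and 4785 of 15598 genes tested. Krt8 itself, the reporter's gene, averaged 21.8 ± 15.8 CPM in K8YFP+ and 1.40 ± 1.67 CPM in K8YFP- cells.

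Wif1 was 49.4, 1.87 and 14.7 CPM in K8YFP+ replicates 1, 2 and 3, and 129, 2.35 and 39.2 CPM in K8YFP- replicates 1, 2 and 3. Levels differed far more between replicate numbers than between gates, and in each number the K8YFP+ library was lower. The log2 fold was -0.95 ± 1.17 (adjusted p = 0.592). With the replicate number as a block it was -1.04 ± 0.19 and passed (adjusted p = 0.00600), and same-numbered libraries did deviate together across genes. Apcdd1 was 12.7, 11.2 and 12.8 CPM in K8YFP+ and 23.3, 22.6 and 20.1 CPM in K8YFP- cells, which did not overlap, and its log2 fold was -0.46 ± 0.18 (adjusted p = 0.111). Scaling matters here. TMM factors taken over all 51 libraries shift log2 folds of this comparison by 0.20 against library totals. The fit used factors of these 2 groups alone, and its shift was larger for Axin2. There the log2 ratio of plain CPM means was -0.09 and the fitted fold 0.32.

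Axin2 was 5.52, 3.11 and 3.67 CPM in K8YFP+ and 6.92, 3.00 and 3.18 CPM in K8YFP- cells, which overlapped (0.32 ± 0.45, adjusted p = 0.640); the ratio of plain CPM means had the opposite sign. Sfrp1 and Dkk3 also overlapped and were not called. Notum was 2.24, 1.87 and 0.524 CPM in K8YFP+ and 0.117, 0.428 and 0.549 CPM in K8YFP- cells. It was too low to be tested between these groups alone, and in the fit of all 14 groups it was higher in K8YFP+ cells (2.31, adjusted p = 0.0196). Fibroblast markers without Fbln1 summed to 67.6 to 599 CPM in K8YFP+ and 15.1 to 79.6 CPM in K8YFP- cells, and their part was not tested. Squamous markers summed to 17584 to 26614 CPM in K8YFP+ and 10902 to 15698 CPM in K8YFP- cells, though 2 of 7 were called higher and 3 lower. Their part was not tested either.

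**Figure D5:**
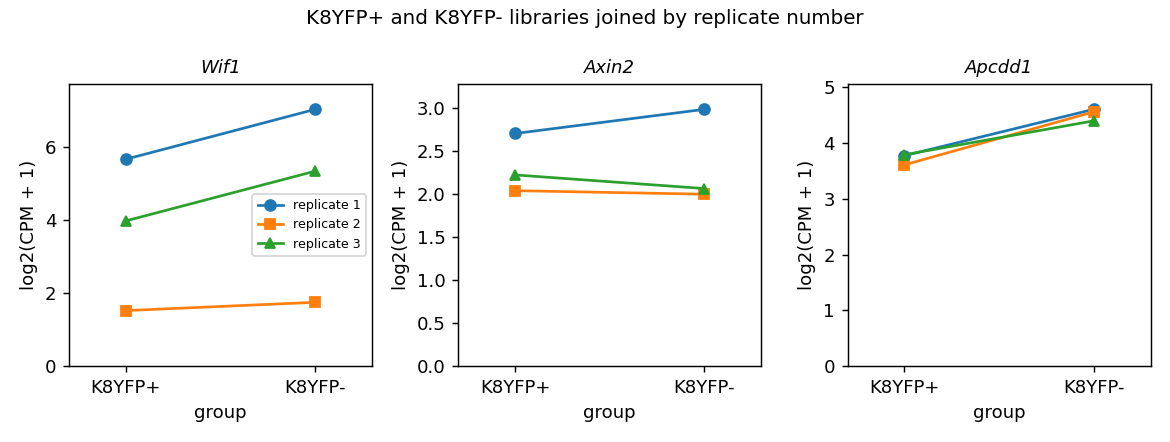
Wif1, Axin2 and Apcdd1 in K8YFP+ (left) and K8YFP- libraries (right), as log2(CPM + 1), lines joining libraries with the same replicate number. Each line of Wif1 and Apcdd1 is lower at the K8YFP+ end, and for Wif1 the 3 lines lie far apart.

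At the junction, columnar cells had more Wif1 and Nkd1 than squamous cells and less Sfrp1, Sfrp2, Apcdd1, Nkd2 and Dkk3. Of 9 members tested, 2 were called higher and 5 lower in columnar cells, where 39.2% of all genes were called higher and 35.2% lower (74.4% in all), so the members' count was near that of all genes. TMM factors taken over all 51 libraries shift log2 folds here by -0.30 against library totals, while the fit used factors of these 2 groups. Wif1 was 2.31, 2.38, 3.73 and 4.70 CPM in columnar and 0, 0.154 and 0 CPM in squamous cells. The 71 reads against 1 made a ratio of 63.7 (exact 95% counting interval 11.1 to 2550, adjusted p = 5.15e-05). Without squamous replicate 2, the one with a read, no Wif1 read was left in squamous cells and the call held (adjusted p = 0.000360). Nkd1 was 25.4, 32.7, 21.9 and 23.1 CPM in columnar and 0.157, 1.23 and 0.998 CPM in squamous cells (log2 fold 4.67 ± 0.35, adjusted p = 2.69e-07).

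Sfrp1 was 3.23, 1.87, 4.90 and 3.80 CPM in columnar and 72.1, 77.9 and 85.5 CPM in squamous cells (-4.85 ± 0.19, adjusted p = 1.56e-09). Sfrp2 was 0.154 to 0.233 CPM in columnar and 2.35 to 3.99 CPM in squamous cells (-4.25 ± 0.44, adjusted p = 4.74e-06), from 4 reads in columnar cells. Apcdd1 was 0.154, 1.87, 1.63 and 3.98 CPM in columnar and 19.9, 20.1 and 17.4 CPM in squamous cells (-3.66 ± 0.42, adjusted p = 1.07e-05), and -4.31 without columnar replicate 4. None of these genes overlapped between the groups. Nkd2 fell by 2.85 ± 0.31 (adjusted p = 5.73e-06) and Dkk3 by 1.39 ± 0.37 (adjusted p = 0.00547) on the log2 scale, also without overlap.

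Notum and Axin2 overlapped between the junction groups. Notum was 5.07, 5.79, 6.53 and 3.80 CPM in columnar and 5.64, 4.46 and 7.55 CPM in squamous cells (-0.47 ± 0.26, adjusted p = 0.119). Axin2 was 7.99, 13.95, 12.4 and 5.78 CPM in columnar and 5.80, 7.22 and 5.84 CPM in squamous cells (0.36 ± 0.30, adjusted p = 0.295). Missing the threshold does not show that the levels were equal. Other Wnt genes went both ways: of 8 other antagonists tested 3 rose and 3 fell, with Sfrp5 at 7.41 ± 2.97 CPM in columnar and 0.155 ± 0.154 CPM in squamous cells, and of 9 ligands 2 rose and 6 fell, with Wnt7b at 0.104 ± 0.121 CPM in columnar and 25.0 ± 3.52 CPM in squamous cells. Immune markers summed to 187 to 421 CPM in columnar libraries, with 1 of 10 at 0, and to 13.7 to 21.8 CPM in squamous libraries, with 2 of 10 at 0, and their part was not tested.

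Embryonic oesophagus had more Axin2, Nkd1 and Sfrp2 RNA than WT cells. Its higher calls of Notum, Nkd2 and Dkk3 were each lost without single libraries. Of 9 members tested, 6 were called higher and 1 lower, where 36.1% of all genes were called higher and 27.8% lower (64% in all). The comparison took its spread from all 51 libraries because the embryo group holds 2. TMM scaling shifted log2 folds by -0.51 against library totals. Axin2 was 11.4 and 17.6 CPM in embryos and 0 to 2.31 CPM in WT cells (median 0.534), with no overlap (3.77 ± 0.46, adjusted p = 2.11e-09; 4.54 without WT replicate 1). Nkd1 was 3.51 and 4.49 CPM in embryos and at most 0.244 CPM in WT cells (4.25 ± 0.69, adjusted p = 8.22e-07). Sfrp2 was 9.23 and 23.5 CPM in embryos and 0.244 to 1.71 CPM in WT cells (3.69 ± 0.38, adjusted p = 2.29e-11; 2.82 without embryo replicate 2).

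Notum was 0.369 and 1.47 CPM in embryos, and its 20 reads against 2 in WT cells made a ratio of 24.5 (exact 95% counting interval 5.96 to 216, adjusted p = 0.000713). Without embryo replicate 2 it missed the threshold (adjusted p = 0.127). Nkd2 was 2.03 and 4.86 CPM in embryos and 0.609 to 1.92 CPM in WT cells (0.99 ± 0.42, adjusted p = 0.0397), lost without embryo replicate 2 (0.18, adjusted p = 0.820) and without WT replicate 1 (0.87, adjusted p = 0.0766), 4 (0.92, adjusted p = 0.0680) or 5 (0.88, adjusted p = 0.0782). It was also lost with low genes kept in the fit (adjusted p = 0.0513), with WT pairs summed (adjusted p = 0.0514) and with the embryo and WT libraries alone (adjusted p = 0.0811). Dkk3 was 21.4 and 24.5 CPM in embryos and 5.47 to 13.03 CPM in WT cells, without overlap (0.80 ± 0.34, adjusted p = 0.0394). This call was lost without embryo replicate 1 (0.80, adjusted p = 0.121) or 2 (0.65, adjusted p = 0.225) and without WT replicate 2 (0.70, adjusted p = 0.0761), 3 (0.78, adjusted p = 0.0566), 5 (0.79, adjusted p = 0.0542) or 6 (0.77, adjusted p = 0.0606), and with WT pairs summed (adjusted p = 0.0698).

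Apcdd1 was the member that was lower in embryos, at 25.6 and 39.9 CPM, against 41.8 to 74.2 CPM in WT cells, with no overlap (-1.15 ± 0.29, adjusted p = 0.000771). Sfrp1 was 39.5 and 75.7 CPM in embryos, the first within and the second above the WT range, and was not called (0.09 ± 0.24, adjusted p = 0.743). Wif1, with 0 and 0.183 CPM in embryos, was not called. All 8 muscle markers had reads in the embryo and summed to 74.1 to 76.3 CPM there and to 5.84 to 14.1 CPM in WT libraries, and fibroblast markers without Fbln1 to 212 to 431 CPM in embryos and 20.4 to 117 CPM in WT. Their part in the values was not tested. Embryo libraries and WT replicates 3 and 4 share the number 5 in their raw names. With these WT libraries alone, 7 of the 9 members kept their side of the threshold, and Dkk3 (adjusted p = 0.176) and Nkd2 (adjusted p = 0.128) lost it.

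K8YFP+ SmoM2 cells differed from columnar cells of the junction in both directions. Of 9 members tested, 4 were called higher and 3 lower, where 27.4% of all genes were called higher and 33.4% lower (60.8% in all), and TMM scaling shifted log2 folds by 0.38. Sfrp1 (2.59 ± 0.31, adjusted p = 1.09e-09), Sfrp2 (4.16 ± 0.65, adjusted p = 4.92e-07) and Apcdd1 (3.13 ± 0.38, adjusted p = 2.51e-09; 3.79 without columnar replicate 4) were higher in K8YFP+ cells, and no library overlapped. Wif1 was higher by 3.30 ± 0.83 (adjusted p = 0.000813), but its groups overlapped through K8YFP+ replicate 2, and without K8YFP+ replicate 1 the call was lost (2.02, adjusted p = 0.0900). Nkd1 was lower by 3.54 ± 0.64 on the log2 scale (adjusted p = 6.17e-06) and called whichever K8YFP+ library was left out, with folds of -2.68, -5.29 and -2.95 without replicates 1, 2 and 3.

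Nkd2 was 0.298, 0 and 0.524 CPM in K8YFP+ and 0.922, 1.53, 1.40 and 2.71 CPM in columnar cells (-1.88 ± 0.75, adjusted p = 0.0279). The call was lost without K8YFP+ replicate 1 (-1.68, adjusted p = 0.153) or 2 (-1.61, adjusted p = 0.0743) or columnar replicate 4 (-1.54, adjusted p = 0.0904). Notum was 2.24, 1.87 and 0.524 CPM in K8YFP+ and 5.07, 5.79, 6.53 and 3.80 CPM in columnar cells (-1.34 ± 0.59, adjusted p = 0.0481). It was lost without K8YFP+ replicate 2 (-1.36, adjusted p = 0.0713) or 3 (-0.85, adjusted p = 0.276) and without columnar replicate 1 (-1.36, adjusted p = 0.0612), 2 (-1.28, adjusted p = 0.0777) or 3 (-1.23, adjusted p = 0.0866), and without K8YFP+ replicate 1 it was -1.96 (adjusted p = 0.0473). RLE size factors (adjusted p = 0.0651), a fit with low genes kept (adjusted p = 0.0660) and DESeq2 (adjusted p = 0.0959) lost it as well, and DESeq2 lost Nkd2 (adjusted p = 0.0640). Axin2 (-0.80 ± 0.48, adjusted p = 0.152) was not called, nor was Dkk3 (0.90 ± 0.56, adjusted p = 0.165), except without K8YFP+ replicate 1 (1.60, adjusted p = 0.0273). Muscle markers summed to 9.17 to 256 CPM in K8YFP+ and 10.5 to 19.2 CPM in columnar libraries, and immune markers to 5.37 to 14.7 CPM in K8YFP+ libraries (4 of 10 at 0) and 187 to 421 CPM in columnar libraries (1 of 10 at 0). Squamous markers summed to 17584 to 26614 CPM in K8YFP+ and 67.5 to 185 CPM in columnar libraries. Their part in these results was not tested.

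Against stomach cells, 6 of 9 members were called higher in K8YFP+ cells and none lower, where 25.1% of all genes were called higher and 25.3% lower (50.4% in all). Apcdd1, from 152 reads, averaged 44.1-fold the floor of the stomach group, and Sfrp2, from 35 reads, 8.47-fold. The stomach group had no read of either. Without stomach replicate 1, the deeper library, these bounds were 13.02-fold and 2.4999-fold, and the calls held. Sfrp1 was 12.2, 16.2 and 18.3 CPM in K8YFP+ and 0.393 and 0.313 CPM in stomach cells (5.53 ± 0.58, adjusted p = 4.56e-11). Wif1, with 390 reads against 1, had a ratio of 348 (exact 95% counting interval 62.1 to 13774, adjusted p = 0.000518) and was called without each library in turn. Without K8YFP+ replicate 1, its highest library, the ratio was 118 (adjusted p = 0.00885), and without stomach replicate 1, which had the read, the level was at least 23.4-fold above the floor (adjusted p = 0.0265). Notum, with 20 reads against 1, had a ratio of 17.8 (2.85 to 739, adjusted p = 0.00588), lost without K8YFP+ replicate 1 (adjusted p = 0.0687) or stomach replicate 1 (adjusted p = 0.0620). Dkk3 (2.14, adjusted p = 0.0254) was lost without K8YFP+ replicate 2 (1.01, adjusted p = 0.311) or stomach replicate 1 (0.73, adjusted p = 0.574), and was 2.82 without K8YFP+ replicate 1 and 4.26 without stomach replicate 2 (log2). Nkd1 (2.38, adjusted p = 0.0645) passed without K8YFP+ replicate 1 (3.23, adjusted p = 0.0131) or 3 (2.97, adjusted p = 0.0261) and with DESeq2 (adjusted p = 0.0270). Axin2, at 5.52, 3.11 and 3.67 CPM in K8YFP+ and 2.49 and 1.88 CPM in stomach cells, did not overlap and was not called (1.14 ± 0.66, adjusted p = 0.150). Nkd2 did not overlap either, at 0.298, 0 and 0.524 CPM in K8YFP+ and 1.44 and 1.25 CPM in stomach cells, and was not called (-1.83 ± 0.85, adjusted p = 0.0690).

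Against gut cells, 6 of 9 members were called higher in K8YFP+ cells and 1 lower, where 24.9% of all genes were called higher and 24.5% lower (49.3% in all). Axin2 was the lower one, at 5.52, 3.11 and 3.67 CPM in K8YFP+ and 19.3 and 61.4 CPM in gut cells (-3.21 ± 0.53, adjusted p = 1.74e-06), and -2.30 without gut replicate 2 (adjusted p = 0.00304). Wif1 was at least 47.1-fold above the floor of the gut group (adjusted p = 0.00195). Without K8YFP+ replicate 1, its highest library, the bound was 17.7-fold (adjusted p = 0.0220), and without gut replicate 1 or 2 it was 26.6-fold (adjusted p = 0.0193) or 20.5-fold (adjusted p = 0.0404). The Notum mean, from 20 reads, was 3.31-fold the floor of the gut group, with counting error of those reads left out. Its call was lost without K8YFP+ replicate 1 (adjusted p = 0.0566) or gut replicate 2 (adjusted p = 0.102). Apcdd1, with 152 reads against 2, had a ratio of 40.3 (exact 95% counting interval 11.0 to 336, adjusted p = 2.89e-07) and stayed called without either gut library. Without gut replicate 1 the ratio was 22.8 (adjusted p = 6.47e-05), and without gut replicate 2, which had both reads, the level was at least 11.4-fold above the floor (adjusted p = 6.64e-05). Sfrp1 was 0.356 and 7.43 CPM in gut cells, and the fold of 1.86 (adjusted p = 0.000177) was 1.08 without gut replicate 1 and 5.21 without gut replicate 2. In a fit of K8YFP+ and gut libraries alone it was not called (1.98, adjusted p = 0.0900).

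Dkk3 had 24 reads in K8YFP+ and 3 in gut cells, a ratio of 4.25 (1.29 to 22.03, adjusted p = 0.0462). It was lost without K8YFP+ replicate 2 (adjusted p = 0.335) or gut replicate 1 (adjusted p = 0.152) or 2 (adjusted p = 0.182), and without K8YFP+ replicate 1 its log2 fold was 2.95 (adjusted p = 0.00993). A fit with low genes kept lost it too (adjusted p = 0.0615). Sfrp2 (2.04, adjusted p = 0.0247) was lost without K8YFP+ replicate 1 (adjusted p = 0.0862) or gut replicate 1 (adjusted p = 0.0623) or 2 (adjusted p = 0.202), with DESeq2 (adjusted p = 0.0624) and in a fit of K8YFP+ and gut libraries alone (adjusted p = 0.0998). Nkd1 (0.45, adjusted p = 0.733) and Nkd2 (-0.53, adjusted p = 0.741) were not called and overlapped. K8YFP+, stomach and gut libraries all have the number 6 in their raw names. Columnar, stomach and gut cells were each set against the same 3 K8YFP+ libraries, so the 3 comparisons are not independent. Fibroblast markers without Fbln1 summed to 67.6 to 599 CPM in K8YFP+, 5.95 to 6.82 CPM in stomach and 4.63 to 142 CPM in gut libraries. Squamous markers summed to 17584 to 26614 CPM in K8YFP+, 32.4 to 34.5 CPM in stomach and 31.4 to 69.2 CPM in gut libraries. Immune markers summed to 5.37 to 14.7 CPM in K8YFP+ (4 of 10 at 0), 6.95 to 21.3 CPM in stomach (3 at 0) and 549 to 663 CPM in gut libraries (2 at 0). The part of these markers was not tested.

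The genes whose group means ran most like those of a member were found by Pearson's r of log2(CPM + 1) over the 14 groups, among 13472 genes. They are given as a description: groups differ in tissue, sort and number of libraries. For Wif1 they were Nrxn3 (r = 0.95), Sez6l (0.94) and Nefm (0.92). Nkd1 ran most like Sobp (0.97), Sfrp1 like Dlc1 (0.96), Sfrp2 like Tmem47 (0.96), Dkk3 like Mtss1l (0.96), Apcdd1 like Krt15, a keratin of basal cells (0.97), Axin2 like Krt20, a keratin of gut epithelium (0.95), Nkd2 like Zfp263 (0.94) and Notum like Gabrp (0.91).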

How the data were processed

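Total RNA of sorted mouse cells was sequenced from NuGEN Ovation Solo libraries on a NovaSeq instrument, per the labels' protocols. The authors deposited 1 table of raw read counts per gene. STAR 2.5.3a, HTSeq, edgeR and the builds GRCm38 and mm10 are named in the submitters' processing notes, while neither the gene annotation nor the strand setting of the counting is given in the sources used. Columns were matched to samples by their raw names, with 0 columns left unused. Of its 52636 genes, 10741 had no count in any library, and 52403 identifiers were found in GENCODE M21, which gave positions and exon lengths.

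CPM were computed from library totals, and errors beside CPM are SD between libraries. Folds and their SE came from edgeR 4.0.16 (R 4.3.3, limma 3.58.1), by the quasi-likelihood test after filterByExpr (minimum count 10, minimum total 15), scaled by TMM. Tests were two-sided, and p-values were adjusted by Benjamini-Hochberg over all genes tested, with a threshold of 0.05. Columnar against squamous cells, Sox9cKO against SmoM2, SmoM2 against WT and K8YFP+ against K8YFP- each had a fit of their own. Contrasts of time and gate shared a fit of 22 libraries, those of the time series with WT, and embryo and K8YFP+ against columnar tissues from 1 fit of all 51 libraries. This made 17 comparisons. The scripts were tested on simulated data. A fold against a group with no read is a bound against 3 counts over that group's total, and exact (Clopper-Pearson) intervals are used for 1 to 3 reads. The bound takes in counting error of the group with no read but not of the other group. Neither covers more than counting error. An SE beside a fold is written as ±.

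Each member is named in every comparison where it was tested, and Dkk1 was tested in none. Of each other Wnt list at most the 3 called genes with the smallest p could be named per comparison, and marker lists are given as summed CPM. Likeness was ranked among protein-coding genes of at least 5 CPM in some group. Members and lists were chosen with earlier results of these data known. Alternatives were DESeq2 1.42.0, RLE size factors, no filter, a replicate block, 1 fit of all 14 groups, the compared groups alone, WT libraries summed in pairs, WT replicates 3 and 4 only, and leaving out each library. For the gates the block was fitted to the libraries of that time alone, and for the interaction to the gate libraries without WT. In these runs the set of libraries changed along with the block. Same-numbered libraries deviated together for K8YFP+ and K8YFP- (correlations 0.29 to 0.41) and for the 3w gates (0.14 to 0.31), as every pair exceeded 0.1. They did not in every pair of the other comparisons. WT replicates 3 and 5, and 4 and 6, differed less than other WT pairs (chi-square per degree of freedom 1.92 and 2.47, others 11.0 to 35.6), but more than sampling noise, and were kept as separate libraries. The raw names of each pair are the same after the leading number, as is that of WT replicate 2 with replicates 3 and 5. Whether a pair is 1 sample sequenced again is not given, and WT would then hold fewer than 6 samples.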

Additional observations from a re-analysis of the deposited data

Results flagged for a closer look

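Dixon's test on log2(CPM + 1) was run on 49 cases. Each was 1 member in 1 group of 4 to 10 libraries where it averaged at least 1 CPM. In 4 of the 49 cases, 1 library stood apart from the rest of its group, and chance alone marks about 1 case in 20. Apcdd1 in EpCAM-low 7w replicate 1 was 80.9 CPM, where the other libraries of its group had 60.6 to 61.7 CPM. Apcdd1 in WT replicate 1 was 74.2 CPM, where the others had 41.8 to 47.5 CPM. Sfrp1 in SmoM2 replicate 6 was 23.5 CPM, where the others had 26.8 to 28.8 CPM. Nkd2 in EpCAM-high 3w replicate 4 was 1.84 CPM, where the others had 0.783 to 0.883 CPM.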

How the results depend on the processing

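No member's called fold changed sign under any alternative run. Of single member results, the side of the threshold was kept in 114 of 124 with DESeq2, 125 of 126 with RLE size factors, 117 of 126 with no filter, 113 of 123 with the replicate block, 81 of 90 with all 14 groups fitted, 21 of 24 with the compared groups alone, 41 of 43 with WT pairs summed, 7 of 9 with WT replicates 3 and 4 only and 1007 of 1076 with 1 library left out. An uncalled fold that changed sign while uncalled was counted as kept. Group levels scaled by TMM moved by more than their SD in 5 of 140 cases. Members called between K8YFP+ and K8YFP- cells, 0 as reported, were 2 with no filter, 1 with the replicate block, 2 with DESeq2, 3 with all 14 groups fitted and 0 to 1 without single libraries. Genes called there, 3110 as reported, were 4785 with the replicate block, 6733 with all 14 groups fitted and 1016 to 2263 without single libraries. For Sox9cKO against SmoM2, members called (0) were 3 with no filter, 4 with DESeq2, 3 with all 14 groups fitted and 0 to 2 without single libraries, and genes called (454) were 767 with no filter, 125 with the replicate block, 1273 with DESeq2, 1524 with all 14 groups fitted and 207 to 2153 without single libraries. Genes called between the gates at 3w (2625) were 5968 with the replicate block in the 3w libraries alone and 1378 in the fit of all 14 groups. For the interaction of gate and time, genes called (398) were 2243 with the replicate block without WT and 42 with all 14 groups fitted. Members called (0) were 1 with that block, Apcdd1 at -0.51 (adjusted p = 0.0108). Without single libraries, members called were 2 to 4 between 7w and 3w in EpCAM-high cells (4 as reported, and 2 in the fit of all 14 groups), 2 to 4 for EpCAM-low 3w against WT (2), 2 to 5 for EpCAM-low 7w against WT (3), 4 to 6 for embryo against WT (7) and 4 to 7 for K8YFP+ against gut (7). With the 2 groups alone, genes called were 7287 for K8YFP+ against stomach (11270) and 5904 against gut (11030), and members called against gut were 3. The cause of these moves was not tested, except that leaving out a library leaves fewer samples. Few reads limit Dkk1, Nkd1, Notum and Sfrp2 in most oesophageal groups.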
